A study of Homo sapiens with 2 samples.

Results

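JAK-STAT signalling carries the message of a cytokine from its receptor at the cell surface to the nucleus. A JAK kinase bound to the receptor phosphorylates STAT proteins, which pair, enter the nucleus and switch on target genes. Among these targets are inhibitors that shut the signal down again (CISH and the SOCS proteins) and the PIM kinases, which promote survival and growth of blood cells. Myeloid cells depend on this pathway for the response to haematopoietic growth factors, and it is often overactive in leukaemia.

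The 32 genes described here are the 4 JAK kinases, 6 STATs, 8 inhibitors of the SOCS and CISH family, 4 PIAS inhibitors, 4 phosphatases, 3 adaptors (SH2B1, SH2B3 and GAB2) and 3 PIM kinases. They were chosen by symbol, and all 32 were found among the 50464 symbols of the deposited table. Messages were counted by RNA sequencing of KASUMI-1, an established line of human myeloid leukaemia cells in which RUNX1 is fused to RUNX1T1. One group had been infected with a lentivirus labelled USP6, after a deubiquitinase, and the other with one labelled pccl, which serves as its control here. The series title asks about the action of this deubiquitinase on RUNX1 fusion proteins, which are not measured by RNA. Each group held 1 library, so that no difference has a replicate check, no test could be made, and an effect of the USP6 lentivirus cannot be told apart from a difference between 2 cultures or preparations.

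The USP6 library held 12518795 counts and the pccl library 12306442, of which the mitochondrial genome took 45.6% in the USP6 library and 49.9% in the pccl library. USP6 itself had 70 counts in the USP6 library and 8 in the pccl library, both under 1 FPKM (fragments normalised to gene length and library size). Whether these counts include the virally expressed message is not known. Of 7 markers of myeloblasts, 6 were expressed. Their FPKM summed to 177 in the USP6 library and 146 in the pccl library, and on the scale defined below MPO and ANPEP were at least 2-fold higher and KIT and CD34 at least 2-fold lower in the USP6 library. Markers of other cell types, in the USP6 library, summed to 7.61 FPKM over 5 T cell genes, 12.6 over 4 B cell genes, 0.0317 over 3 erythroid genes, 1.19 over 3 megakaryocyte genes and 8.80 over 5 stromal or epithelial genes. In the pccl library the same sums were 1.08, 3.13, 0.0796, 0.257 and 17.4 FPKM. Nearly all of the last sum was EPCAM, an epithelial gene with 8.77 FPKM (470 counts) in the USP6 library and 17.3 FPKM (914 counts) in the pccl library, and CD79A of B cells had 10.5 FPKM in the USP6 library and 2.60 in the pccl library. LCK, MS4A1, HBB, HBA1, ALAS2, PF4, COL1A2 and KRT18 had at most 1 count in either library, while CD2 and CD3E of the T cell list and CD79A and CD79B of the B cell list were higher in the USP6 library. The part of these markers in the results below was not tested.

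CISH and PIM1, both known to be induced by STAT5, were lower in the USP6 library, and the stretch before their start sites is shown because STAT proteins can act there. On the scale defined below CISH stayed under 1.5-fold, at -0.50. Centred on the GC trend described further on, it was past that limit, at -0.84. CISH passed the limit for expression, also defined below, through the pccl library alone, which fixed its direction. A list of STAT target genes given below went both ways, with 6 of 18 expressed genes higher and 6 lower by at least 1.5-fold. Any part of STAT5 in the levels of CISH and PIM1 was not tested. Sequences are those of RefSeq on GRCh38.p14, 250 bases up to the start site, with each copy of the STAT motif TTCNNNGAA in capitals. The motif reads the same on both strands. The CISH window is chr3:50611775-50612024 on the minus strand and the PIM1 window chr6:37169902-37170151 on the plus strand.
CISH: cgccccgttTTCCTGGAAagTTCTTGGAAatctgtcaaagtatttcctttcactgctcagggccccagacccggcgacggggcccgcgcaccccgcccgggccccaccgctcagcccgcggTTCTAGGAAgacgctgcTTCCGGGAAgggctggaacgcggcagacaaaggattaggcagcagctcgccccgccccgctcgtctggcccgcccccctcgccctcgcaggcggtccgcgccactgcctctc
PIM1: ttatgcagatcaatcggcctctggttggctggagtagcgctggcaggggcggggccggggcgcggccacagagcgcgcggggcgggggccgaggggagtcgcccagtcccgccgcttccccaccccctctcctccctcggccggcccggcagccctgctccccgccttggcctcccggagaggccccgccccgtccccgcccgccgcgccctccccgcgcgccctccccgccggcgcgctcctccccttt
The CISH window holds 4 copies, starting 241, 230, 129 and 112 bases before the start site, and the PIM1 window holds none. Of 35116 such windows in the table, 6.57% hold at least 1 copy and 5 windows hold 4 or more. Windows were found for 28 of the 32 genes, 43 in all because of alternative starts, and the CISH window was the 1 of these with the motif. SOCS2, SOCS5, SOCS7 and PTPN11 had no entry. A copy of the motif is a run of letters and not a measured binding site.

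Across the 32 genes, differences went both ways and about as often as in the rest of the transcriptome. Expression was set at 1 FPKM or more in whichever library was higher, which 29 of the 32 reached and STAT4, SOCS1 and SOCS2 did not. Differences were sized as log2((USP6 + 1)/(pccl + 1)) of FPKM, on which low genes show less than their fold. By at least 1 on this scale (2-fold), TYK2, STAT6, PTPN6, SH2B1 and GAB2 were higher in the USP6 library, and STAT5A, PTPN11 and SH2B3 were lower. That is 17.2% higher and 10.3% lower, against 13.7% and 11.4% of all 10153 expressed genes, and 8 in either direction, against 25.1% of all. By at least 1.5-fold, 8 were higher and 8 lower, 27.6% each, against 27.7% and 24.3% of all expressed genes, and 16 in either direction, against 51.9% of all. These shares lay near the background. JAK3, PIAS4 and PIM3 joined the higher genes at this limit, and JAK1, STAT3, SOCS7, PIM1 and PIM2 the lower ones. The median was -0.08 over the 29 genes and 0.06 over all expressed genes. Of the 29, 7 reached 1 FPKM in 1 library alone (STAT2, PIAS3 and GAB2 in the USP6 library, STAT5A, SOCS5, SOCS7 and CISH in the pccl library), so they entered through the library in which they were higher.

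Folds below divide the FPKM of the 2 libraries with no pseudocount added, and each has an exact 95% counting interval. These intervals cover counting error only, and reads copied from 1 molecule by PCR would make them too narrow. The interval excluded 1 for 27 of the 29 genes (93.1%), against 80.6% of all expressed genes, and included it for SOCS4 and PTPN1. Since each value comes from a whole culture, a change in the share of cells of one kind and a change of RNA per cell cannot be told apart.

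**Figure D1:**
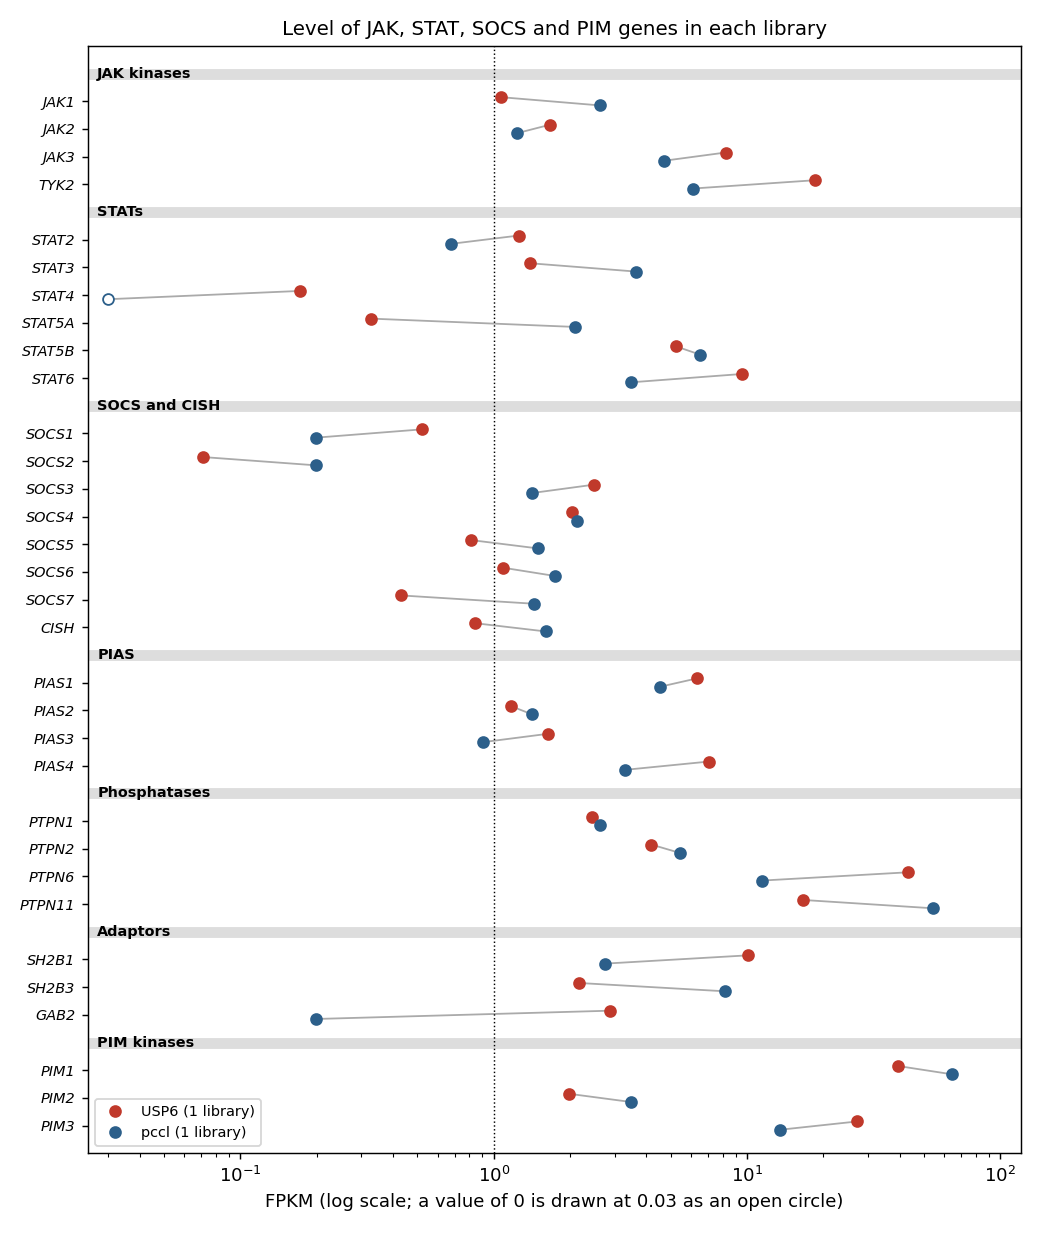
FPKM (log axis) of the 32 genes by role, with 1 point for the USP6 library (red) and 1 for the pccl library (blue); the dotted line marks 1 FPKM and the open circle a value of 0. PIM1, PTPN11 and PTPN6 lie to the right, and long connecting lines include those of GAB2, STAT5A, PTPN6, SH2B3, SH2B1, SOCS7 and PTPN11. The line of STAT4 runs to its open circle, so its length does not show a fold.

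Among the kinases, TYK2 was higher and JAK1 lower in the USP6 library. TYK2, which serves receptors of interferons and of interleukin-12, had 18.6 FPKM (2751 counts) in the USP6 library and 6.14 FPKM (892 counts) in the pccl library, 3.03-fold higher with an interval of 2.81 to 3.27. JAK3, the partner of the common gamma chain of lymphoid cytokine receptors, had 8.23 FPKM in the USP6 library and 4.68 in the pccl library, 1.76-fold higher (1.58 to 1.95). JAK2, which serves the receptors of erythropoietin, thrombopoietin and granulocyte-macrophage colony-stimulating factor, was low in both, with 131 counts (1.66 FPKM) in the USP6 library and 96 counts (1.24 FPKM) in the pccl library, a ratio of 1.34 (1.02 to 1.76). JAK1, used by receptors of interferons and of the interleukin-6 family, went the other way, with 1.06 FPKM (95 counts) in the USP6 library and 2.63 FPKM (231 counts) in the pccl library, 2.47-fold lower (1.94 to 3.18). It did not reach the 2-fold limit on the scale with the pseudocount, at -0.82.

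These differences changed the make-up of the kinase messages. Summed over the 4 kinases, FPKM was 29.6 in the USP6 library and 14.7 in the pccl library. TYK2 made up 63.0% of the sum in the USP6 library and 41.8% in the pccl library, while JAK1 made up 3.60% in the USP6 library and 17.9% in the pccl library. TYK2 lies on chromosome 19 from 10350529 to 10380676 and JAK3 on the same chromosome from 17824780 to 17848071. The transcripts of both are rich in G and C, at 61.3% and 58.5%, against 46.2% for JAK1 and 39.2% for JAK2. The ratios of all genes followed GC content, as shown further on. Centred on that trend, TYK2 had a log2 ratio of 0.87, under the 2-fold limit, against 1.46 before, and JAK3 had 0.25 against 0.70.

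Of the STATs, STAT6 and STAT2 were higher in the USP6 library, and STAT5A, STAT3 and STAT5B lower. STAT6, activated by interleukin-4 and interleukin-13, had 9.56 FPKM (1955 counts) in the USP6 library and 3.50 FPKM (703 counts) in the pccl library, 2.73-fold higher (2.51 to 2.98). Its GC-centred log2 ratio was 0.92, against 1.23 before. STAT2, a partner in the factor that answers type I interferon, had 162 counts (1.25 FPKM) in the USP6 library and 86 counts (0.676 FPKM) in the pccl library, 1.85-fold higher (1.42 to 2.43). STAT4, the STAT of interleukin-12 signalling, had 14 counts in the USP6 library and 0 in the pccl library. Against a floor of 3 counts in the pccl library it was at least 4.59-fold higher if the 14 counts are taken as exact, and the counting interval of the ratio began at 3.26. Its level of 0.172 FPKM is under the limit for expression.

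STAT5A was the STAT with the greatest fold below the pccl library, and its close relative STAT5B differed little. Both carry signals of growth factors in myeloid cells. STAT5A had 46 counts (0.327 FPKM) in the USP6 library and 288 counts (2.08 FPKM) in the pccl library, 6.37-fold lower (4.65 to 8.89). STAT5B had 515 counts (5.23 FPKM) in the USP6 library and 631 counts (6.52 FPKM) in the pccl library, 1.25-fold lower (1.11 to 1.40). The 2 genes are close in sequence: of the 50-base words of the longest STAT5A transcript, 11.9% also occur in that of STAT5B, so that a share of the reads cannot be assigned with certainty. Counted together they had 561 counts in the USP6 library and 919 in the pccl library, 1.67-fold lower (1.499 to 1.85). STAT3, activated by the interleukin-6 family and by granulocyte colony-stimulating factor, had 1.39 FPKM (256 counts) in the USP6 library and 3.64 FPKM (658 counts) in the pccl library, 2.61-fold lower (2.26 to 3.03). At -0.96 it lay just under the 2-fold limit.

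The 3 lower STATs are neighbours on chromosome 17. The table lists STAT5B from 42199168 to 42276707, STAT5A from 42287547 to 42311943 and STAT3 from 42313324 to 42388568, with 10839 and 1380 bases between them. The higher STAT2 (from 56341597 to 56360155) and STAT6 (from 57095408 to 57132139) both lie on chromosome 12. As GC contents of the 3 lower genes were 50.4% to 57.8%, where the trend of all genes lay at or above 0, centring left STAT5A at -1.62 and STAT3 at -0.98. Summed over the 6 STATs, FPKM was 17.9 in the USP6 library and 16.4 in the pccl library. STAT6 made up 53.3% of that sum in the USP6 library and 21.3% in the pccl library, and STAT3 7.76% in the USP6 library and 22.2% in the pccl library.

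The inhibitors of the SOCS and CISH family were low in both libraries, and 5 of the 6 expressed ones had a log2 ratio below 0, against 47.6% of all expressed genes. Of these, SOCS5, SOCS7 and CISH passed the limit for expression through the pccl library alone, which fixed their direction. The median of the 6 expressed ones, -0.43, became -0.073 after centring on the GC trend described further on. Centred, SOCS5 lay at -0.11, SOCS6 at -0.038, SOCS3 at -0.01 and SOCS4 at 0.23. SOCS7 and CISH lay further below 0 than before, at -0.88 and -0.84 against -0.77 and -0.50, past the 1.5-fold limit. Proteins of this family bind phosphorylated receptors or JAKs and can recruit a ubiquitin ligase through their SOCS box. CISH, induced by STAT5, had 95 counts (0.840 FPKM) in the USP6 library and 178 counts (1.60 FPKM) in the pccl library, 1.91-fold lower (1.48 to 2.47). It shares 218 exon bases, 4.26% of its own, with MAPKAPK3 on the opposite strand, which had 2698 counts in the USP6 library and 896 in the pccl library. Counted together, CISH and MAPKAPK3 were 2.56-fold higher (2.38 to 2.75), with most of these counts from MAPKAPK3. How reads in the shared bases bear on the fold of CISH was not tested. Whether the libraries keep strand is not given in the sources used here. SOCS2, also a STAT5 target and a brake on growth hormone signalling, had 16 counts in the USP6 library and 44 in the pccl library, 2.80-fold lower (1.55 to 5.31). Its level was 0.0710 FPKM in the USP6 library and 0.199 in the pccl library. Its level per length is understated by the length behind its FPKM, as set out below. It shares 277 exon bases with its antisense gene SOCS2-AS1, which had 158 counts in the USP6 library and 134 in the pccl library.

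SOCS7 showed the greatest fold of the expressed family members. It had 56 counts (0.432 FPKM) in the USP6 library and 184 counts (1.44 FPKM) in the pccl library, 3.34-fold lower (2.47 to 4.59), and was the member past 1.5-fold on the scale with the pseudocount, at -0.77. SOCS5 had 0.814 FPKM in the USP6 library and 1.49 in the pccl library, 1.83-fold lower (1.41 to 2.40). SOCS6 had 1.09 FPKM in the USP6 library and 1.75 in the pccl library, 1.61-fold lower (1.28 to 2.02). For SOCS4, 457 counts in the USP6 library stood against 468 in the pccl library, a ratio of 0.960 with an interval of 0.842 to 1.09. SOCS3 and SOCS1, inhibitors of gp130 and interferon signalling, had more counts in the USP6 library. SOCS3 had 96 counts (2.48 FPKM) in the USP6 library and 54 counts (1.42 FPKM) in the pccl library, 1.75-fold higher (1.24 to 2.49), and lay on the GC trend (centred log2 ratio -0.01). SOCS1 had 8 counts in the USP6 library and 3 in the pccl library, a ratio of 2.62 with an interval of 0.629 to 15.3.

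Of the 4 PIAS genes, which encode SUMO ligases that restrain STATs and other transcription factors, 3 had a log2 ratio above 0, against 52.4% of all expressed genes. Among these 3, PIAS3 passed the limit for expression through the USP6 library alone, which fixed its direction. PIAS4 had 7.07 FPKM (364 counts) in the USP6 library and 3.30 FPKM (167 counts) in the pccl library, 2.14-fold higher (1.78 to 2.59), which is 0.91 with the pseudocount. Centred on the GC trend it was 0.27, under the 1.5-fold limit. PIAS3 had 174 counts in the USP6 library and 95 in the pccl library, 1.80-fold higher (1.39 to 2.34), and it shares 432 exon bases with NUDT17. PIAS1 had 6.32 FPKM in the USP6 library and 4.52 in the pccl library, 1.40-fold higher (1.27 to 1.54). More of PIAS1 is shared than of any other of the 32 genes, 27.2% of its exon bases with AC107871.1 and 30.3% with CALML4. Over all 3 overlapping genes the ratio was 1.37 (1.28 to 1.46). PIAS2 had 1.17 FPKM in the USP6 library and 1.42 in the pccl library, 1.21-fold lower (1.04 to 1.41). After GC centring its log2 ratio was 0.21, against -0.16 before, so its direction depended on that step.

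**Figure D2:**
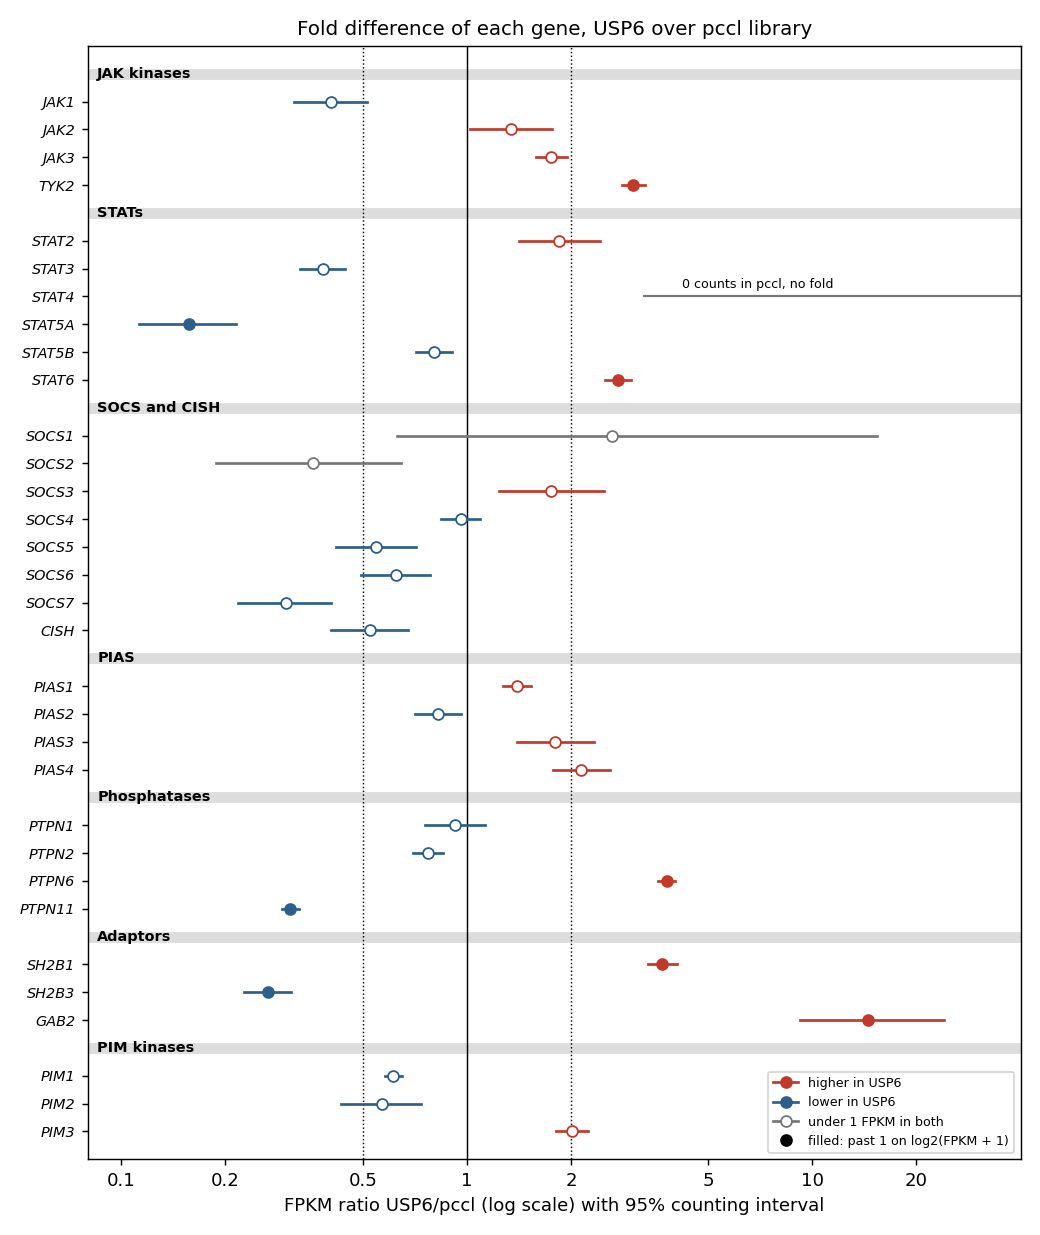
FPKM ratio of the USP6 over the pccl library (log axis) with its 95% counting interval for the 32 genes by role; filled points passed 1 on the log2 scale with a pseudocount of 1, and grey marks genes under 1 FPKM in both libraries. GAB2 at 14.5 and STAT5A near 0.16 lie farthest out, and PTPN6, PTPN11 and PIM1 have narrow intervals.

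The phosphatases SHP-1 and SHP-2 stood in opposite order in the 2 libraries. PTPN6 encodes SHP-1, which is found mainly in blood cells and removes phosphate from JAKs and receptors, and PTPN11 encodes SHP-2, which in contrast supports signalling from growth factor receptors to RAS. PTPN6 (chromosome 12 from 6946468 to 6961316) had 43.3 FPKM (5776 counts) in the USP6 library and 11.4 FPKM (1499 counts) in the pccl library, 3.79-fold higher (3.58 to 4.01). PTPN11 (chromosome 12 from 112418351 to 112509913) had 16.6 FPKM (1716 counts) in the USP6 library and 53.9 FPKM (5466 counts) in the pccl library, 3.24-fold lower (3.07 to 3.42). Of all expressed genes 1.95% had a higher log2 ratio than PTPN6 and 3.16% a lower one than PTPN11. The level of PTPN6 was 2.60 times that of PTPN11 in the USP6 library (2.46 to 2.75) and 0.212 times in the pccl library (0.2 to 0.224). With the length of the longest transcript in place of that behind the FPKM, these ratios were 8.51 in the USP6 library and 0.694 in the pccl library, so the order in each library was kept. This pair, and those below, were set side by side after their values were seen.

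Neither phosphatase lost its 2-fold difference when GC content was taken into account, at 1.33 for PTPN6 and -1.36 for PTPN11. The PTPN6 transcript is 59.5% G and C and that of PTPN11 42.2%. PTPN11 has processed pseudogene copies, and 6.94% of its 50-base words occur in another gene, but the 4 genes that share most of them had at most 1 count in either library. It also shares 111 exon bases, 1.58% of its own, with the ribosomal protein gene RPL6, which had 10955 counts in the USP6 library and 7879 in the pccl library. The other phosphatases differed little. PTPN1, which encodes PTP1B and acts on JAK2 and TYK2, had 2.44 FPKM in the USP6 library and 2.64 in the pccl library, a ratio of 0.926 (0.757 to 1.13). PTPN2, which encodes a phosphatase of JAK1, JAK3 and nuclear STATs, had 4.19 FPKM in the USP6 library and 5.42 in the pccl library, 1.29-fold lower (1.17 to 1.43), and lay on the GC trend (centred log2 ratio 0.04).

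All 3 adaptors passed the 2-fold limit, in different directions. SH2B3 encodes LNK, which binds JAK2 and restrains growth factor signalling in blood progenitors. It had 2.18 FPKM (203 counts) in the USP6 library and 8.20 FPKM (751 counts) in the pccl library, 3.76-fold lower (3.22 to 4.42). SH2B1, a relative that enhances JAK2 activity, had 10.1 FPKM (1913 counts) in the USP6 library and 2.74 FPKM (511 counts) in the pccl library, 3.68-fold higher (3.34 to 4.07). The level of SH2B1 was thus 4.63 times that of SH2B3 in the USP6 library (4.01 to 5.38) and 0.335 times in the pccl library (0.298 to 0.375). With the longest transcript as the length, the ratios were 8.43 in the USP6 library and 0.609 in the pccl library. GAB2, a docking protein that recruits SHP-2 and phosphoinositide 3-kinase, had 295 counts (2.88 FPKM) in the USP6 library and 20 counts (0.198 FPKM) in the pccl library, 14.5-fold higher (9.22 to 24.1).

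SH2B3 lies on chromosome 12 from 111405948 to 111451623, SH2B1 on chromosome 16 from 28846600 to 28874212 and GAB2 on chromosome 11 from 78215297 to 78418348. Their GC contents were 54.99%, 60.7% and 54.5%. GC centring gave -1.78 for SH2B3, 1.003 for SH2B1 and 1.47 for GAB2, against -1.53, 1.57 and 1.69 before. No exon of GAB2 overlaps another annotated gene, and SH2B3 shares 69 exon bases with ATXN2. With a pseudocount of 5 FPKM, which weighs down low genes, all 3 adaptors lay under the 2-fold limit, at -0.88, 0.96 and 0.60.

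The PIM kinases were split, with PIM1 and PIM2 lower and PIM3 higher in the USP6 library. These serine/threonine kinases are constitutively active, and their activity is set largely by their amount. PIM1 had the highest level of the 32 genes in the pccl library, 64.6 FPKM (3012 counts), and 39.6 FPKM (1877 counts) in the USP6 library, where it came after PTPN6. It was 1.63-fold lower in the USP6 library (1.54 to 1.73), and its GC-centred log2 ratio of -1.0 reached the 2-fold limit, against -0.69 before. PIM2 had 1.98 FPKM (91 counts) in the USP6 library and 3.49 FPKM (158 counts) in the pccl library, 1.77-fold lower (1.36 to 2.31). PIM3 had 27.3 FPKM (1038 counts) in the USP6 library and 13.5 FPKM (506 counts) in the pccl library, 2.02-fold higher (1.81 to 2.25). PIM3 is rich in G and C (67.1%), and centred on the trend its log2 ratio was 0.12, against 0.96 before. PIM1 remained the most abundant of the family in both libraries, with 57.5% of the summed FPKM in the USP6 library and 79.2% in the pccl library.

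**Figure D3:**
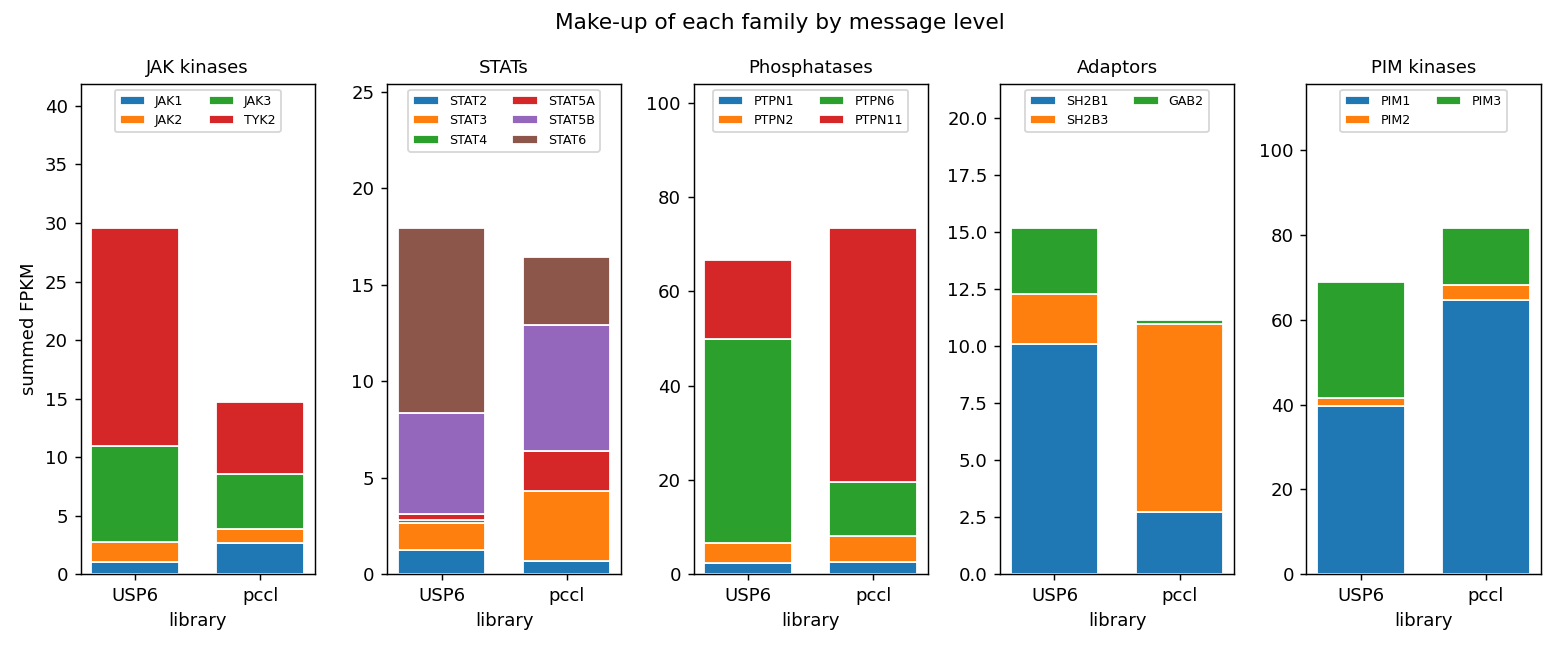
Summed FPKM of 5 families in the USP6 and pccl libraries, stacked by gene (linear axes that start at 0 and differ between panels). The phosphatases sum to 66.6 FPKM in the USP6 library and 73.4 in the pccl library, with PTPN6 the largest part in the USP6 library (65.0%) and PTPN11 in the pccl library (73.5%); among the adaptors SH2B1 (66.6%) takes that place in the USP6 library and SH2B3 (73.6%) in the pccl library.

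The ratios of the 32 genes followed the GC content of their transcripts about as those of other genes did. Spearman's rho of GC content with the log2 ratio was 0.43 over the 29 expressed genes and 0.40 over 10101 expressed genes with a GC value. These are relations across genes of the same 2 libraries and are given as descriptions. Of 19 genes with at least 50% GC, 11 had a log2 ratio above 0, and of 10 genes under 50% GC, 2 did (JAK2 and PIAS1). Among all genes, 70.5% of the GC-richer class and 37.5% of the other lay above 0. The medians were 0.47 and -0.23, against 0.43 and -0.27 for all genes of the same classes. After centring on a lowess trend, 3 genes were higher by at least 2-fold (PTPN6, SH2B1 and GAB2) and 4 lower (STAT5A, PTPN11, SH2B3 and PIM1). SOCS3, SOCS4, PIAS2 and PTPN2 changed sign, all of them with a centred value between -0.01 and 0.23. What produced the trend with GC content was not tested.

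**Figure D4:**
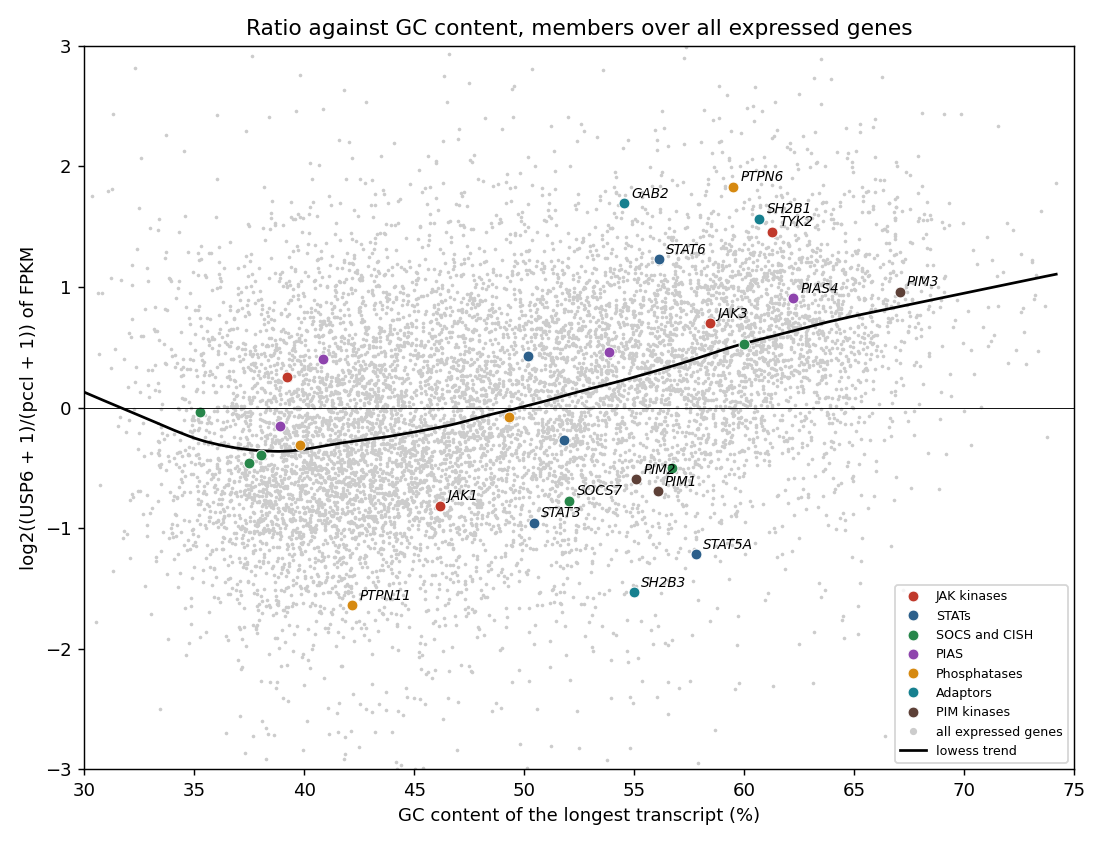
Log2 ratio with a pseudocount of 1 FPKM against GC content of the longest transcript for expressed genes (grey), with the 29 expressed genes by role (colours) and the lowess trend (black); 66 of 10101 genes lie outside the axes. GAB2, PTPN6 and STAT6 lie above the trend at their GC content and SH2B3, STAT5A and PTPN11 below it, while PIM3, SOCS3 and PTPN2 lie close to it.

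The lengths behind the FPKM bear on levels set between genes, though not on folds between the libraries. Each FPKM implies a gene length, and for the 32 genes that length was 0.687 to 4.82 times that of the longest annotated transcript, with a median of 1.78. SOCS2 (4.82), PTPN6 (4.42) and STAT6 (4.05) had the greatest ratios, and their FPKM is low for their counts. With the longest transcript as the length, STAT6 was 1.34 times as abundant as STAT3 in the pccl library (1.2 to 1.49), whereas with the implied length it was 0.962 times as abundant (0.863 to 1.07). In the USP6 library both lengths put STAT6 above STAT3, at 9.55 and 6.87 times. STAT5B exceeded STAT5A in both libraries with either length. In FPKM its level was 16.0 times that of STAT5A in the USP6 library and 3.13 times in the pccl library, and with the longest transcript 9.44 times in the USP6 library and 1.85 times in the pccl library. Shares of a family depend on the length too. With the longest transcript, STAT6 made up 69.1% of the STATs in the USP6 library and 33.4% in the pccl library, where it then came before STAT3 (25.0%) and STAT5B (23.7%). JAK1 made up 2.19% of the kinases in the USP6 library and 12.3% in the pccl library, and TYK2 73.5% in the USP6 library and 55.1% in the pccl library. PTPN6 made up 82.0% of the phosphatases in the USP6 library and 34.1% in the pccl library, and PTPN11 9.63% in the USP6 library and 49.2% in the pccl library.

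Other genes of the pathway were counted from lists not picked by their ratio, though earlier results of these data were known. Of 26 receptor genes, 10 were expressed, with 5 higher and 2 lower by at least 1.5-fold and a median log2 ratio of 0.57. For this and the following lists, 27.7% of all expressed genes were higher and 24.3% lower by that limit, with a median of 0.06. Among the receptors, IL10RB and EPOR passed the limit for expression through the USP6 library alone and IL6ST through the pccl library alone, which fixed their direction. IL10RB, a chain shared by receptors of interleukin-10 and type III interferon that signals through TYK2, had 8.37 FPKM in the USP6 library and 0.388 in the pccl library, 21.6-fold higher (13.8 to 35.7). IFNGR1, the ligand-binding chain for interferon gamma, had 26.3 FPKM in the USP6 library and 9.66 in the pccl library, 2.72-fold higher (2.46 to 3.02). IL6ST encodes the gp130 chain that signals through JAK1 and STAT3. It had 24 counts (0.0715 FPKM) in the USP6 library and 432 counts (1.31 FPKM) in the pccl library, 18.3-fold lower (12.1 to 28.9). IL13RA1, a chain that pairs with the interleukin-4 receptor, had 2.06 FPKM in the USP6 library and 7.11 in the pccl library, 3.46-fold lower (2.82 to 4.26).

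Ligand genes were mostly silent, with 2 of 17 expressed and 8 without a count in either library. IFNB1 had 13 counts in the USP6 library and 0 in the pccl library, at least 4.26-fold higher against a floor of 3 counts if the 13 are taken as exact, and with a counting interval that began at 2.996. EPO had 25 counts in the USP6 library and 3 in the pccl library, a ratio of 8.19 with an interval of 2.50 to 42.4. Both passed the limit for expression through the USP6 library alone, which fixed their direction, and EPO had a GC-centred log2 ratio of 0.48 against 1.08 before. Of 26 target genes of STATs, 18 were expressed. Their median was -0.035, and 6 each (33.3%) lay above and below the limits of 1.5-fold. BCL6 and IRF7 passed the limit for expression through the USP6 library alone and HIF1A through the pccl library alone, which fixed their direction. CDK6 and CCND2, which drive entry into the cell cycle, had 11.2 and 11.5 FPKM in the USP6 library against 48.1 and 39.2 in the pccl library, 4.32-fold (4.10 to 4.54) and 3.42-fold lower (3.20 to 3.66). The other D-type cyclin genes did not share this size or direction. CCND3 was 2.96-fold higher (2.57 to 3.41) and CCND1 1.23-fold lower (1.09 to 1.40). ISG15, an interferon-induced ubiquitin-like modifier, was 4.196-fold higher (3.29 to 5.40), and TIMP1, an inhibitor of metalloproteinases, 3.29-fold higher (3.05 to 3.54). Other interferon targets of the list did not all go with ISG15. IFIT1 had a ratio of 0.887 (0.719 to 1.09), and IRF7 was 7.14-fold higher (4.40 to 12.2). IRF9, MX1 and OAS1 were under 1 FPKM in both libraries, with intervals that included 1. A response to interferon was not tested.

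A list of 8 genes around the ubiquitin ligase that SOCS proteins recruit had 3 of 6 expressed genes lower and 1 higher by at least 1.5-fold, with a median of -0.43. The list also held CBL, CBLB, UBE2F and UBE2M, which are not subunits of that ligase. Its subunit genes went both ways, with log2 ratios of 0.51 for ELOB, -0.65 for ELOC, -1.41 for CUL5 and 0.76 for RNF7. The scaffold gene CUL5 had 1.30 FPKM in the USP6 library and 5.13 in the pccl library, 3.93-fold lower (3.28 to 4.74), and the adaptor gene ELOC was 1.93-fold lower (1.64 to 2.29). RNF7, the RING subunit, was 1.77-fold higher (1.61 to 1.94), and UBE2M, an enzyme of cullin activation by NEDD8, 1.87-fold lower (1.63 to 2.15). The median over 10 expressed PIM substrates was 0.15, with 2 of them higher by at least 1.5-fold and 2 lower, smaller shares than among all genes. BAD, a cell death gene whose product PIM kinases inactivate, was 2.23-fold higher (1.85 to 2.70) and CDC25C, a phosphatase of the cell cycle, 2.55-fold higher (1.96 to 3.34). CBX3, which encodes a heterochromatin protein, and MAP3K5, a stress kinase gene, were 4.74-fold (4.10 to 5.51) and 2.67-fold lower (1.87 to 3.89). MAP3K5 passed the limit for expression through the pccl library alone, which fixed its direction. Centred on the GC trend, BAD had a log2 ratio of 0.17 against 0.98 before and MAP3K5 -0.56 against -0.72, both inside the 1.5-fold limits.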

How the data were processed

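One library per group, from KASUMI-1 cells infected with the USP6 or the pccl lentivirus, was sequenced. HISAT2 2.0.4, StringTie 1.3.3b and edgeR are named in the submitters' processing notes, with no roles given. The genome build, the annotation and the strandedness are not given in the sources used here. Of the 32 loci, 29 were identical in GENCODE 29, from which exon overlaps and GC content were taken. Counts were deposited by the authors as whole numbers per gene. FPKM values, also deposited by the authors, are scaled by the column total and a gene length that was the same in both libraries within 0.1% for all 15971 single-identifier genes counted in both.

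FPKM and counts were summed by symbol. With 0 residual degrees of freedom no test was made. The log2 ratio used a pseudocount of 1 FPKM and limits of 1 and 0.58. Intervals of folds are 95% Clopper-Pearson intervals of the conditional binomial, with a floor of 3 counts for a value of 0. GC centring used a lowess span of 0.3. Every one of the 32 genes is named, and from each pathway list up to 4 expressed genes with the largest absolute log2 ratio. Further genes of the lists are named beside them where they limit the reading. The genes and lists were chosen with earlier results of these data known. The steps were tested on simulated counts. The software was pandas 2.3.3, statsmodels 0.14.6, SciPy 1.17.1, matplotlib 3.10.9 and NumPy 2.4.6 under Python 3.11.15. Trimmed mean factors for an alternative came from edgeR 4.0.16 in R 4.3.3. One marker gene is not reported here.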

Additional observations from a re-analysis of the deposited data

How the results depend on the processing

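No paired analysis was possible because each group held 1 library, and no library could be left out. The genes higher and lower by at least 2-fold, 5 and 3 as reported, numbered 5 and 4 when scaled by the trimmed mean of M values or to a median log2 ratio of 0, where STAT3 was added. The same 5 and 3 were counted with no filter and with the 1 FPKM limit set on the mean. They numbered 5 and 6 both with a pseudocount of 0.5 and with depth from nuclear genes (JAK1, STAT3 and SOCS7 added), 7 and 6 with a pseudocount of 0.1, 2 and 1 with a pseudocount of 5, 4 and 2 with a filter of 5 FPKM, 3 and 4 after GC centring, and 8 and 8 with a limit of 1.5-fold. Of all genes, 18.3% and 15.6% were higher and lower with a pseudocount of 0.5, 14.6% and 16.1% with nuclear depth, 22.6% and 19.6% with a pseudocount of 0.1, 3.59% and 2.96% with a pseudocount of 5, 19.6% and 16.5% with the filter of 5 FPKM, which 13 of the 32 passed, and 9.68% and 9.85% after GC centring. The shares of all genes were 11.8% and 13.3% with the trimmed mean and 11.9% and 12.8% with a median log2 ratio of 0. With no filter they were 6.99% and 5.79%, and with the limit on the mean 13.8% and 11.9%. No gene past the 2-fold limit changed sign under these scalings, pseudocounts or GC centring.

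The median over the genes, -0.08 as reported, was -0.11, -0.093 and -0.0375 with pseudocounts of 0.1, 0.5 and 5, 0.70 with a filter of 5 FPKM (0.08 over all genes), -0.0599 with no filter, -0.15 with the trimmed mean, -0.14 with a median log2 ratio of 0, -0.19 with nuclear depth and 0.0443 after GC centring. Its sign therefore depended on the filter and on GC content. For receptors the median was 0.77 with a filter of 5 FPKM, 0.50 after GC centring and 0.47 with the trimmed mean. For ligands it was 0.95 and 1.08 with the last 2 of these settings, with the sign fixed by the filter, and no ligand reached 5 FPKM. For STAT targets it was -0.34 after GC centring and -0.13 with the trimmed mean. For the list around the SOCS box ligase it was -0.22, -0.35 and -0.51 with the 3 settings, and for PIM substrates -0.0501 after GC centring and 0.064 with the trimmed mean. The cause was not tested. With the longest transcript as gene length, chosen after seeing the data, the level ratio of STAT6 over STAT3 in the pccl library was 1.34, against 0.962 as reported, and the family shares moved as given in the report. Genes with few counts, such as STAT4, SOCS1, SOCS2 and STAT5A in the USP6 library, are limited by depth.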
